A study of Mus musculus with 19 samples.

Results

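Messenger RNA of dendrites from cultured hippocampal neurons of the inbred mouse strain Balb/c was measured on 5 of the 19 arrays of the series. The 5 arrays were chosen by their titles, and each held RNA of 1 pool of severed dendrites. There were 2 pools of 100 dendrites, 1 of 200 and 2 of 400. Pools are named here by the number of dendrites and the replicate, so that 200-1 is the pool of 200. The neurons came from E18 embryos and had grown for 14 days in culture, and the labels name neither a treatment nor an engineered allele in any pool. Axons could not be told from dendrites by shape in these cultures, according to the study, so a pool can hold some axonal RNA. The pools are called biological replicates, but no source used here says whether they came from separate cultures or animals. The SDs and p-values below therefore measure the spread between pools, which may be technical. The 14 other arrays, of C57BL/6 mice handled in the same way, were used for correlations with the Balb/c pools, for comparisons of spread and for a fit with pooled variance.

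Dendrites hold a subset of a neuron's mRNAs together with ribosomes and translation factors, so that proteins can be made close to synapses. mRNAs reach the dendrite in granules of RNA and RNA-binding proteins that motors carry along microtubules. Transcripts for ribosomal proteins, the respiratory chain and the cytoskeleton are known to be abundant in neurites. Classic dendritic mRNAs include those of the kinase subunit Camk2a, the microtubule-associated protein Map2, the activity-regulated Arc and the calmodulin-binding protein Nrgn.

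Values are log2 expression values, with 1 unit a 2-fold difference. A gene is the median of its probe sets, and values of a gene in the 5 pools are given in the order 100-1, 100-2, 200-1, 400-1 and 400-2. Of the 18193 genes, 9183 (50.5%) had 1 probe set. The signal of a probe set also depends on how well its probes bind, so the order of genes by signal is not an order of molecules.

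The median gene lay at 6.97, 6.95, 6.85, 6.98 and 6.95 in the 5 pools. The pools did not group by their size. Across genes, which are not independent replicates, the pools of 100 correlated at 0.651 and those of 400 at 0.784, while 100-2 and 400-1 correlated at 0.828 and 200-1 and 400-2 at 0.812. The pool of 200 stood apart from its strain. Its correlation with the C57BL/6 pool 400-1 was 0.929, above the 0.812 it reached with any Balb/c pool. Pool 400-2 likewise correlated at 0.891 with the C57BL/6 pool 200-1. The other 3 pools were closer to a Balb/c pool (0.781 to 0.828) than to any C57BL/6 pool (0.680 to 0.745). No source used here says whether 200-1 was exchanged or handled together with a C57BL/6 pool, which was not tested. The values of 200-1 are those of the array labelled Balb/c, and results that turn on it are given without it as well.

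Technical measures also differed between the pools. The number of distinct values among the 45101 probe sets was 3336, 1569, 5458, 2052 and 3382, highest in 200-1 and lowest in 100-2 and 400-1. The 3′ minus 5′ signal of the Gapdh control probe sets, which grows as amplified RNA is cut short toward its 3′ end, was 1.48, 1.89, 3.37, 4.23 and 4.72 on the log2 scale. For Actb it was −0.69, 2.0, 2.27, −0.21 and 0.98. Their part in the results below was not tested.

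Whether Balb/c pools differed more from each other than C57BL/6 pools was asked of the median absolute log2 difference between arrays of a strain. Its mean was 0.645 in Balb/c (n = 5) and 0.526 in C57BL/6 (n = 14). The difference of 0.119 did not pass a two-sided exact permutation test over all 11628 splits of the arrays (p = 0.213). By pool, the mean distance to the other Balb/c pools was 0.647, 0.661, 0.718, 0.624 and 0.574. The pool of 200 was the most distant of the 5. Deposited columns also differed in number format. No label or header says what this format marks, so it is not known to be a batch. Within the format that all Balb/c columns shared, with 4 arrays of C57BL/6, the 2 means were 0.645 and 0.636 (exact permutation p = 0.929, 126 splits). These 4 included the C57BL/6 pools 400-1 and 200-1, which correlated best with the Balb/c pools 200-1 and 400-2. Their mean distances to their own strain, 0.647 and 0.673, were the largest among C57BL/6 pools. Their Actb 3′ minus 5′ signals, 1.65 and 1.17, were the lowest there, where the next was 3.27. What set these 2 pools apart was not tested.

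The spread of single genes was broad. The SD over the 5 pools had a median of 0.619 over genes, with a 10th percentile of 0.308 and a 90th of 1.237. An SD under 0.2 was found for 399 genes (2.19%) and an SD of 1 or more for 3326 (18.3%). Without 200-1 the median SD was 0.551, which was also the median SD over the 14 C57BL/6 arrays. Spread was larger among genes of higher signal, except at the very top. The median SD ran from 0.528 to 0.581 in the lower 5 deciles of mean signal and was 0.813 and 0.805 in the highest 2, while the 20 genes of highest signal had SDs of 0.06 to 0.56.

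**Figure D1:**
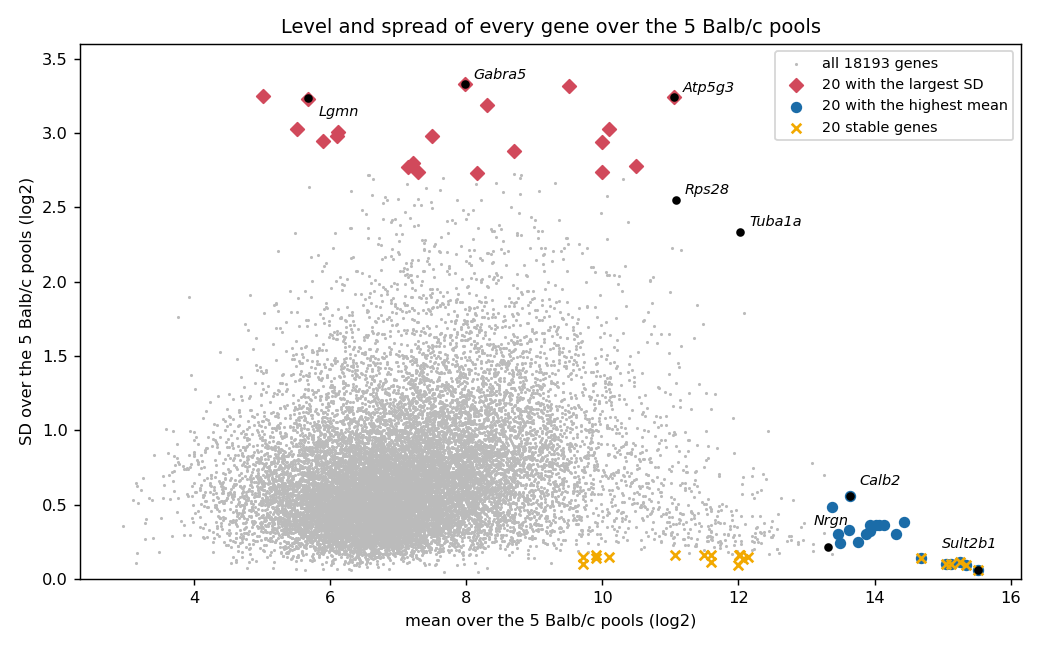
Mean (x axis, log2) and SD (y axis, log2) of each of 18193 genes over the 5 Balb/c pools, 1 point a gene, with the 20 genes of highest mean, the 20 stable genes and the 20 genes of largest SD in colour and 8 genes named. The genes of highest mean sit at the lower right with SDs of at most 0.56, and the genes of largest SD lie between 2.73 and 3.33 at means from 5.01 to 11.05.

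The 20 genes of highest signal had means from 13.37 to 15.52. Sult2b1, a sulfotransferase of cholesterol and other steroids, led at 15.44, 15.52, 15.57, 15.48 and 15.58. Smc1b, a cohesin subunit of meiosis, followed at 15.35 ± 0.09 (SD, n = 5). Grid2ip, a scaffold protein that binds the delta glutamate receptor, was at 15.26 ± 0.11 and Oxt, the oxytocin precursor, at 15.05 ± 0.10. These genes lay close to the highest value of any probe set in the Balb/c columns, 15.99. Others among the 20 were Acot3, an acyl-CoA thioesterase, the transcription factor Tead3, the secretory pathway protein Jagn1, the chromatin protein Hdgfl2, Sil1, a cofactor of the endoplasmic reticulum chaperone BiP, the SUMO protease Uspl1, the O-mannosyltransferase Pomt1, the Mediator subunit Med18 and Gdpd5. Calb2 (calretinin), a calcium-binding protein of interneurons, was at 13.87, 13.17, 14.15, 12.92 and 14.08. Its signal was high in every pool, with the pools 200-1, 400-2 and 100-1 above 400-1 and 100-2. The last of the 20 was Cav1 (caveolin) at 13.37 ± 0.48, and the next gene outside was Rnasek at 13.37 ± 0.17.

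Of these 20 genes, 19 had a single probe set, so that no median lowered their value. When a gene was instead its probe set of highest mean, 4 of the 20 stayed (Sult2b1, Smc1b, Grid2ip and Hdgfl2). The list was then led by the kinase subunit Pik3cd at 15.98 ± 0.03, and it held Mrpl57 of the mitochondrial ribosome (15.68), Igfbp5 (15.62), the adhesion molecule Ncam2 (15.27) and Rnasek (15.34). Which genes stood highest thus depended on the choice of probe set.

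A total of 2062 genes lay in the top 5% (909 genes) of at least 1 pool, 1005 of them in 1 pool alone, and 282 (1.55%) lay there in all 5. Of the 30 gene groups examined, 14 had a member among the 282. Nrgn (neurogranin), which binds calmodulin in dendritic spines, was at 13.49, 13.47, 13.05, 13.12 and 13.46. Sncb (beta-synuclein), a presynaptic protein, was at 11.93, 11.68, 12.26, 11.73 and 12.15. The groups also placed there Uqcrh of respiratory complex III (12.95 ± 0.26), the ribosomal protein Rpl7a (11.38 ± 0.62), the mitochondrial ribosomal proteins Mrpl57 (12.43 ± 1.0) and Mrps27 (11.41 ± 0.32), and the proteasome subunit Psmd3 (11.02 ± 0.51). Further members were Dctn1, the large dynactin subunit of dynein transport (10.89 ± 0.44), Atp1b2 of the sodium pump (10.76 ± 0.27), the imprinted noncoding RNA Rian (10.82 ± 0.47) and the interferon-induced Oasl2 (11.59 ± 0.27). These genes were chosen for lying in the top 5% of every pool, so their distance from the median gene follows from that rule.

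Taken by their mean over the pools, 5.0% of all genes lie in the top 5% by construction. The cytoskeleton group had 8 of 43 members there, the kinesins and dyneins 7 of 53, the presynaptic group 4 of 29, the respiratory chain 10 of 81 and glutamate receptors 3 of 29. For cytosolic ribosomal proteins it was 3 of 45, for translation factors 1 of 63, for chaperones 1 of 80 and for postsynaptic scaffolds 0 of 24. Several of these counts rested on 200-1. Without it the cytoskeleton had 3, the respiratory chain 6, the presynaptic group 2, kinesins and dyneins 6 and glutamate receptors 3. In the top 5% of all 5 pools the cytoskeleton had 0 of 43 and the respiratory chain 1 of 81, where all genes had 1.55%. Members of motor complexes were led by Dctn1 and by Dync2li1, a light intermediate chain of dynein-2 (10.72 ± 0.66). Among glutamate receptors and their partners, Cacng7, a TARP subunit of AMPA receptors, was highest at 10.70 ± 0.81, and the receptor Grm8 was at 10.57, 8.16, 10.79, 8.60 and 11.47. Grm8 was low in 100-2 and 400-1 and high in the other 3 pools.

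A second count asked how many members lay above the median gene in every pool, which 4727 of all genes (26.0%) did. In the presynaptic group it was 16 of 29 (55.2%), in kinesins and dyneins 22 of 53 (41.5%), in cytosolic ribosomal proteins 18 of 45 (40.0%) and in the respiratory chain 28 of 81 (34.6%). In postsynaptic scaffolds it was 6 of 24 (25.0%) and in translation factors 15 of 63 (23.8%), near the share of all genes. Olfactory and vomeronasal receptors, which serve in the nose, had 10 of 69 (14.5%). One of them, Olfr15, was at 12.33, 12.16, 11.89, 12.31 and 12.35 and so in the top 5% of all pools.

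The labelled source, hippocampal neurons, was set against marker genes. Pan-neuronal markers had 5 of 16 above the median gene in all pools and 0 of 16 below it in all, where all genes had 23.9% below. Rbfox3, the NeuN antigen, was at 8.77, 8.16, 10.63, 8.06 and 10.08, and Syt1, a calcium sensor of vesicle release, at 8.47, 7.54, 9.50, 8.02 and 10.58. Both lay above the median gene in every pool and highest in 200-1 and 400-2. Map2 was at 6.12, 7.17, 8.08, 5.95 and 6.26 and lay above the median gene in 100-2 and 200-1. Snap25, a SNARE protein, was at 5.69, 8.43, 7.97, 5.38 and 6.14, with the same pools above. Tubb3, the neuronal beta-tubulin, was at 7.30, 6.21, 6.35, 4.68 and 6.09 and so below the median gene in 4 of the 5 pools. Defining markers of neurons thus lay on both sides of the median gene.

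Pyramidal neuron markers had 3 of 15 above the median gene in every pool, where all genes had 26.0%. Beside Nrgn these were Camk2a at 7.05, 7.80, 7.31, 8.22 and 7.86 and the transcription factor Neurod2 at 9.31 ± 0.64. As many, 3 of 15, lay below it in every pool. These were Fibcd1 (5.28 ± 0.33), Tbr1 (5.48 ± 0.35) and Slc17a6 (6.39 ± 0.39). Slc17a7, the vesicular glutamate transporter of these cells, was at 6.17, 7.81, 6.31, 6.33 and 7.08, above the median gene in 2 pools. Neurod6 varied most, at 5.58, 9.89, 8.87, 4.39 and 6.09, and was high in 100-2 and 200-1. Among interneuron markers 6 of 15 lay above the median gene in all pools, with Calb2, the serotonin receptor Htr3a (9.43 ± 0.82), Lhx6 (8.93 ± 1.19) and Reln (8.92 ± 0.86) highest. Gad1, which makes GABA, was at 8.70, 7.42, 10.12, 7.41 and 8.48. Other interneuron markers were low, and 1 of 15, Dlx2 (5.93 ± 1.03), lay below the median gene in all pools. The means of Dlx1 (6.42), Dlx5 (6.41), Slc32a1 (6.74), Nkx2-1 (6.81) and Sst (6.82) were also under the median gene of each pool.

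Markers of other cells were also measured. Astrocyte markers had a group mean of 6.50, 6.44, 7.82, 6.29 and 6.58, and the value of 200-1 lay 1.24 above the next pool. Fabp7, a fatty acid binding protein of radial glia and astrocytes, was at 6.49, 6.07, 10.73, 6.74 and 6.99, the gap junction protein Gja1 at 5.19, 4.95, 9.45, 5.83 and 5.85, and the secreted chaperone Clu at 6.59, 6.79, 9.75, 6.56 and 6.59. All 3 lay at 6.99 or lower in the other 4 pools and stood out in 200-1 alone. In such pools fewer pieces of a cell type and less RNA in each cannot be told apart. Gfap, the classic intermediate filament of astrocytes, was at 6.92, 5.50, 7.53, 5.54 and 6.23. Of the 15 astrocyte markers 10 were highest in 200-1, where 20.5% of all genes were. For Aqp4 this was by 6.96 against 6.95 in 400-2. Of the rest 3 were highest in 100-1 (Aldh1l1, Gjb6 and Acsbg1), 1 in 100-2 and 1 in 400-1. Aldh1l1 was at 6.42, 6.03, 5.54, 5.71 and 5.79 and so lowest in 200-1. Oligodendrocyte markers had 2 of 14 above the median gene in all pools and 4 below it in all. Microglia markers had 6 of 14 above it in all, among them Cx3cr1 (9.28 ± 0.24), Csf1r (8.71 ± 0.73) and Tyrobp (9.01 ± 1.32). As many, 6 of 14, lay below it in all pools. These were Aif1 (5.32 ± 0.38), Ptprc (5.39 ± 0.42), Cd68 (5.59), C1qa (5.94), C1qb (6.22) and P2ry12 (6.27). Of 15 endothelial and fibroblast markers 3 lay above it in all pools and 4 below it in all. Over all genes these shares were 26.0% and 23.9%. Cldn5 (5.80 ± 0.85), Vwf (5.89 ± 0.42) and Tek (5.95 ± 0.55) were among those below. Kdr, a receptor of vascular growth factor, was at 12.24, 11.30, 8.31, 10.27 and 11.93 and was lowest in 200-1. The part of other cells in the signals of the pools was not tested.

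The 29 mRNAs known from dendrites had 6 members above the median gene in every pool and 3 below it in every pool. After Nrgn came Actb (beta-actin), whose mRNA is carried into neurites, at 9.51, 12.49, 12.58, 8.32 and 10.75. It was high in 100-2 and 200-1 and low in 400-1, a range of more than 4 log2 units. Ddn (dendrin), a protein of dendritic spines, was at 8.48, 8.08, 8.93, 7.87 and 8.94, and Gria2, the AMPA receptor subunit that limits calcium entry, at 8.12, 7.75, 7.94, 7.82 and 7.40. Ddn and Gria2 varied little among the pools, with SDs of 0.49 and 0.27. Gria1, another AMPA receptor subunit, was at 4.50, 5.11, 5.45, 5.75 and 5.34, below the median gene throughout, as were Prkcz (5.93 ± 0.11), a kinase of the PKC family, and Cpeb1 (5.36 ± 0.62), which controls poly(A) tails in dendrites.

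Several of these mRNAs were high in a single pool. Bdnf, a growth factor released at synapses, was at 6.37, 8.29, 6.48, 6.38 and 6.74, and Dlg4 (PSD-95), the main scaffold of excitatory synapses, at 6.87, 9.73, 5.95, 7.89 and 7.12. Both were highest in 100-2, as were Fmr1, the fragile X protein (7.22, 9.52, 6.56, 7.86 and 8.01), and Psd (7.75, 9.36, 7.32, 6.81 and 6.79). Arc was highest in 400-2 (7.48, 7.55, 6.59, 7.56 and 9.03). The elongation factor Eef1a1 was at 6.00, 7.03, 10.36, 6.93 and 7.80, the scaffold Shank3 at 7.11, 6.34, 9.80, 6.95 and 7.61 and the lysosomal protein precursor Psap at 6.51, 6.55, 9.50, 6.52 and 7.78. For these 3 the pool of 200 was highest and 400-2 came next. The median SD of the group was 0.756, and 0.546 without 200-1.

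**Figure D2:**
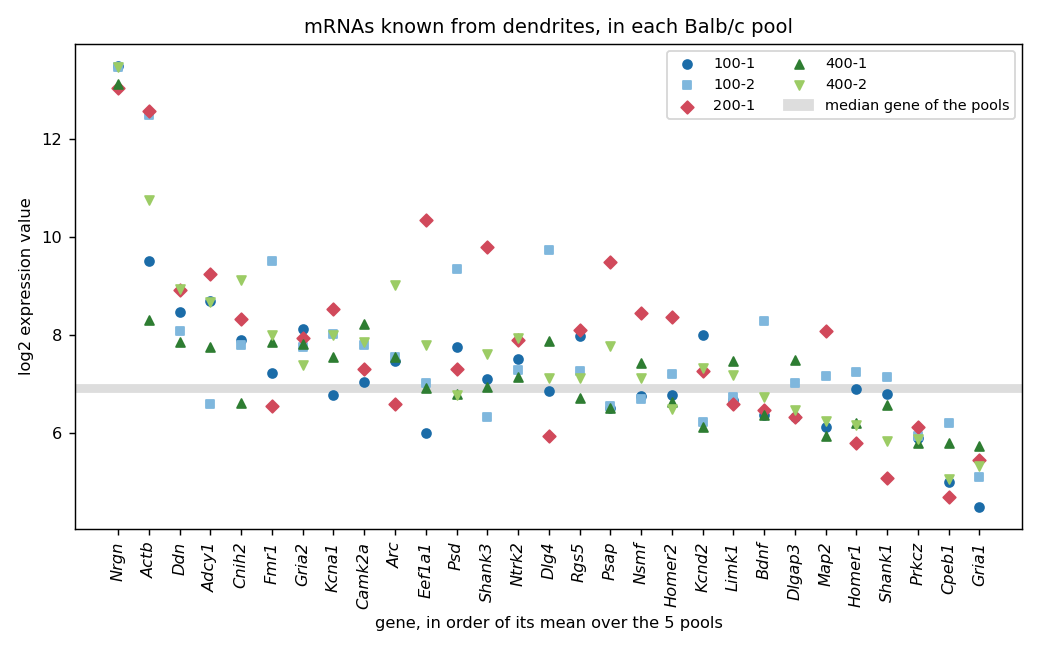
Log2 expression value (y axis) of 29 mRNAs known from dendrites, in order of their mean, with 1 symbol for each of the 5 Balb/c pools and a grey band over the median gene of the pools (6.85 to 6.98). Nrgn is near 13 in every pool, while Actb, Eef1a1, Shank3, Dlg4 and Bdnf are high in only some pools.

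The genes that were stable over the pools were taken from the top 5% by mean, as the 20 with the smallest SD. Their SDs ran from 0.06 to 0.16. The rule orders genes by this SD, so the values are a description. The list again held Sult2b1, Smc1b, Acot3, Oxt, Grid2ip and Tead3, whose signals were among the highest on the array. So close to the highest value of any probe set a saturated signal would vary little, and saturation was not tested, so the small SDs of these genes do not show a steady level. At lower signal it held Gon4l, a regulator of transcription, at 12.10, 11.90, 11.95, 11.93 and 12.08, Nabp2, which binds single-stranded DNA (11.60 ± 0.11), and Focad (12.06 ± 0.13). Khsrp, an RNA-binding protein of splicing and mRNA decay, was at 11.30, 11.37, 11.57, 11.62 and 11.65, and Cdkn1a, the cell cycle inhibitor p21, at 10.14, 9.98, 9.97, 10.33 and 10.04. Ndufaf8, an assembly factor of respiratory complex I (9.90 ± 0.16), the deubiquitinase Stambpl1 (9.72 ± 0.15), Ecd (9.71 ± 0.10), the methyltransferase Setmar (12.14 ± 0.15), the Rab regulator Tbc1d22b (9.90 ± 0.14), the glycogen targeting subunit Ppp1r3a (12.02 ± 0.16) and Cd33 (11.06 ± 0.16) were also among them.

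The probe sets behind a stable gene did not always share its level. Of the 20 genes, 15 had 1 probe set. For Cdkn1a the 2 probe sets had means of 8.05 and 12.13, and for Khsrp the 3 ran from 6.18 to 11.55, with SDs from 0.16 to 0.71. In Cdkn1a, Ecd, Ndufaf8 and Stambpl1 both probe sets had SDs of 0.21 to 0.48, above the 0.10 to 0.16 of the genes. The small SD of these genes was thus that of an average and was shown by neither probe set. Ecd, Ndufaf8 and Stambpl1 also lay in the top 5% of 0 pools, though in it by mean. Without 200-1 the same rule kept 9 of the 20 genes, without 100-2 it kept 10, and with the probe set of highest mean it kept 1. Membership of this list was thus not firm, whereas the highest 20 kept 19 or 20 of their genes when any pool was left out.

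The 20 genes with the largest SD (2.73 to 3.33) fell into 3 sets by the pool in which they were highest. In 12 genes this was 200-1, in 6 it was 100-1 and in 2 it was 100-2. They were chosen by their SD, so their values are a description.

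In the first set, Gabra5, a subunit of GABA-A receptors found on hippocampal dendrites, was at 8.53, 4.58, 11.28, 4.46 and 11.02, which gave the largest SD of all genes (3.33). Nnat (neuronatin), a membrane protein of the endoplasmic reticulum in neurons, was at 9.08, 6.17, 13.84, 6.58 and 11.85. Chgb, a granin of dense-core vesicles, was at 8.11, 4.90, 12.42, 5.62 and 10.49. In these 3 genes the pools 200-1 and 400-2 were high, 100-1 was between and 100-2 and 400-1 were low. Atp5g3, which encodes the c subunit of ATP synthase, was at 11.71, 7.91, 14.67, 7.47 and 13.47 and Cox5a of cytochrome c oxidase at 3.23, 5.45, 10.14, 3.54 and 8.13. Stmn4, a stathmin that binds tubulin, was at 10.38, 6.88, 14.52, 7.69 and 11.01 and Dynll2, a dynein light chain, at 6.72, 6.56, 12.79, 6.71 and 10.72. The order of the pools was again 200-1 and then 400-2. Ppp2r1a, the scaffold subunit of phosphatase 2A (9.64, 7.77, 14.79, 8.69 and 11.57), Grn (progranulin) of lysosomes (9.54, 7.48, 14.23, 7.20 and 11.49), Romo1 of the mitochondrial inner membrane (8.97, 8.84, 14.16, 6.95 and 11.01) and Ccn3, a matricellular protein (9.32, 5.70, 11.82, 5.21 and 8.75), also had 200-1 and 400-2 above 100-2 and 400-1. The exception was the tetraspanin Cd81, high in 200-1 and 100-2 (4.69, 9.58, 11.66, 5.77 and 5.74).

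Where a gene of this set had several probe sets, most of them were highest in the same pool. All 5 probe sets of Ppp2r1a, all 3 of Cox5a and both of Ccn3 and of Dynll2 were highest in 200-1, and 2 of 3 for Grn. Their SDs were not equal, with 0.44 to 3.0 for Ppp2r1a and 1.94 to 3.98 for Dynll2.

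In the second set the pool 100-1 alone was high. Lgmn (legumain), a lysosomal protease, was at 11.45, 4.50, 4.19, 4.30 and 3.94 and Homez, a homeobox gene, at 10.83, 3.17, 4.68, 4.21 and 4.68. Olfr976, an olfactory receptor, was at 11.45, 4.58, 4.92, 5.35 and 4.25, Ctla2b at 11.10, 4.97, 3.87, 4.61 and 4.88 and Cpn2, a subunit of plasma carboxypeptidase N, at 11.96, 5.95, 5.74, 6.88 and 5.15. The other 4 pools lay together in each of these genes, at low signal. All 6 genes of the set had 1 probe set. In the third set, Morc4 was at 4.88, 10.63, 4.59, 9.75 and 6.28 and the major urinary protein gene Mup10 at 6.10, 10.74, 4.59, 9.66 and 5.34. They were the reverse of the first set, with 100-2 and 400-1 high and the other 3 pools low.

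**Figure D3:**
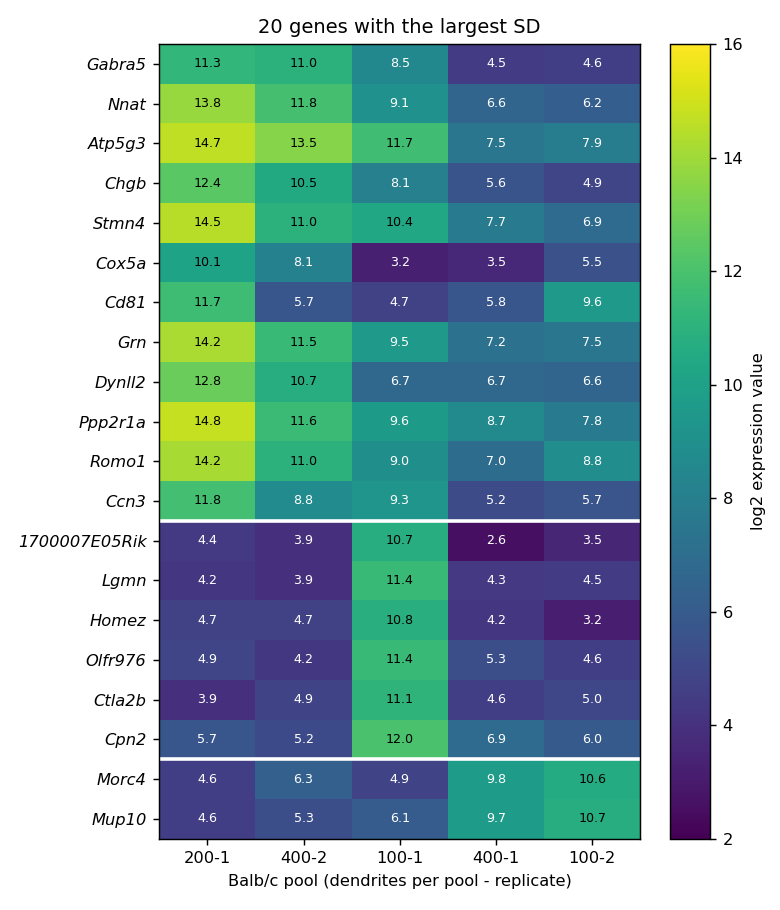
Log2 expression value (colour and number) of the 20 genes with the largest SD in the 5 Balb/c pools. The x axis holds the pools in the order 200-1, 400-2, 100-1, 400-1 and 100-2. White lines stand between the genes highest in 200-1, in 100-1 and in 100-2. Pool 200-1 is brightest in each row of the upper block, with values up to 14.79, and pool 400-2 comes next except in Cd81 and Ccn3. Pool 100-1 alone reaches 10.71 to 11.96 in the middle block.

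The split of the pools into 200-1 and 400-2 against 100-2 and 400-1 was noticed in these values and then counted over all genes. In 3930 of the 18193 genes (21.6%) the first pair lay above the second. Among the 20 genes of largest SD it was 13 (65%), and among the 181 genes of the upper 1% by SD it was 97 (53.6%). Both sets were chosen by their SD over these same pools, so counts among them are a description and no separate evidence. Of those 181, 74 were highest in 200-1, 62 in 100-1, 24 in 100-2, 18 in 400-2 and 3 in 400-1. The lowest pool was 100-2 in 58 of them, 400-1 in 49, 200-1 in 33, 100-1 in 23 and 400-2 in 18. A single pool lay apart from the other 4 in 22.7% of the 181, against 6.88% of all genes. The number of distinct values was also highest in 200-1 and lowest in 100-2 and 400-1, and its part in this pattern was not tested.

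The leading genes depended on those pools. Without 200-1 the rule kept 8 of the 20 genes, and 15 of its 20 genes were then highest in 100-1, among them Ahrr, Card6, Nradd and the immediate early gene Junb (10.69, 6.07, 6.20, 4.30 and 5.34). Without 100-1 it kept 13, and 16 were highest in 200-1, with Ndufb11 of complex I (8.98, 5.23, 12.34, 7.02 and 9.94) and Rundc3b among the new ones. With the probe set of highest mean 3 of the 20 stayed (Gabra5, Nnat and 1700007E05Rik) and 18 were highest in 200-1, led by the malate dehydrogenase Mdh1 (12.31, 4.97, 14.66, 8.42 and 14.08) and including Prkaca, the catalytic subunit of protein kinase A (7.94, 5.29, 14.08, 5.58 and 11.22), and Vim, an intermediate filament of glia and other cells (6.19, 8.51, 13.82, 4.39 and 10.08). The names changed with the probe set, while the pool in which most were highest stayed 200-1.

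Some gene groups also had their highest mean in 200-1. The mean over the 13 glycolysis genes was 7.53, 7.58, 9.49, 7.34 and 8.46, and over the 43 cytoskeleton genes it was 7.40, 7.53, 9.20, 7.11 and 8.02. The 45 cytosolic ribosomal proteins had 7.72, 7.48, 9.00, 7.11 and 7.81 and the 81 respiratory chain genes 7.46, 7.16, 8.96, 7.05 and 8.06. Over all genes the mean was 7.16, 7.14, 7.08, 7.17 and 7.15. In each of these 4 groups 200-1 was highest, 400-2 next and 400-1 lowest, while 100-2 lay above 100-1 in glycolysis and the cytoskeleton and below it in the other two. Members highest in 200-1 numbered 10 of 13, 30 of 43, 28 of 45 and 55 of 81, against 20.5% of all genes. Pan-neuronal markers were highest in 200-1 as well, at 6.97, 7.32, 8.40, 6.42 and 7.29, with 9 of 16 highest in 200-1.

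The spread of single members was large in these groups. The median SD was 1.15 in glycolysis, 1.05 in pan-neuronal markers, 1.03 in cytosolic ribosomal proteins, 0.974 in the respiratory chain and 0.941 in the cytoskeleton, against 0.619 over all genes. Without 200-1 these were 0.774, 0.623, 0.691, 0.645 and 0.728, against 0.551. They thus came closer to all genes when that pool was left out. Tuba1a, the alpha-tubulin of young neurons, was at 11.04, 10.85, 15.15, 9.40 and 13.71 and Rps28, a protein of the small ribosomal subunit, at 10.21, 11.52, 14.88, 7.82 and 10.98. Pgk1, a glycolytic enzyme, was at 9.58, 7.23, 12.59, 7.41 and 10.63. By contrast Eno2, the neuronal enolase, was highest in 100-2 at 11.48 and between 5.84 and 7.91 elsewhere, so a group did not move as 1 block.

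Other groups held the excess of 200-1 at a smaller size. RNA transport proteins were at 6.81, 6.98, 7.68, 6.99 and 6.93, with Hnrnpm at 11.01, 7.87, 11.35, 7.37 and 8.51. Proteasome subunits were at 6.93, 6.84, 7.63, 6.73 and 6.98, with Psmd14 at 5.21, 6.68, 10.99, 6.79 and 8.41. Chaperones were at 6.94, 6.89, 7.29, 6.94 and 7.0. The presynaptic group was at 7.86, 7.92, 8.68, 7.95 and 8.47, where Syn1 (synapsin I) was highest in 100-2 (7.38, 12.26, 9.72, 9.40 and 8.97) and Sv2a in 200-1 (10.09, 7.13, 11.39, 8.69 and 10.95). Quantile normalisation, range scaling and the probe set of highest mean left 200-1 highest in each of the groups named here with an excess in that pool.

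Some groups differed little between pools or ran the other way. Kinesins and dyneins were at 7.35, 7.41, 7.45, 7.41 and 7.46 and glutamate receptors at 7.45, 7.53, 7.31, 7.38 and 7.33. Motor genes thus had nearly the same mean in every pool, although Kif5c, a neuronal kinesin, was at 6.51, 5.45, 9.55, 5.49 and 8.51. Olfactory and vomeronasal receptors were lowest in 200-1 (7.0, 6.81, 6.60, 7.02 and 6.81), with 5 of 69 highest there and 26 in 400-1. The interferon group was at 7.37, 7.95, 7.30, 8.06 and 7.52, with 8 of 13 highest in 400-1 and 0 in 200-1, and the lowest pool was 100-1 in place of 200-1 after quantile normalisation or range scaling. Microglia markers were at 7.37, 7.29, 7.13, 7.23 and 7.42.

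**Figure D4:**
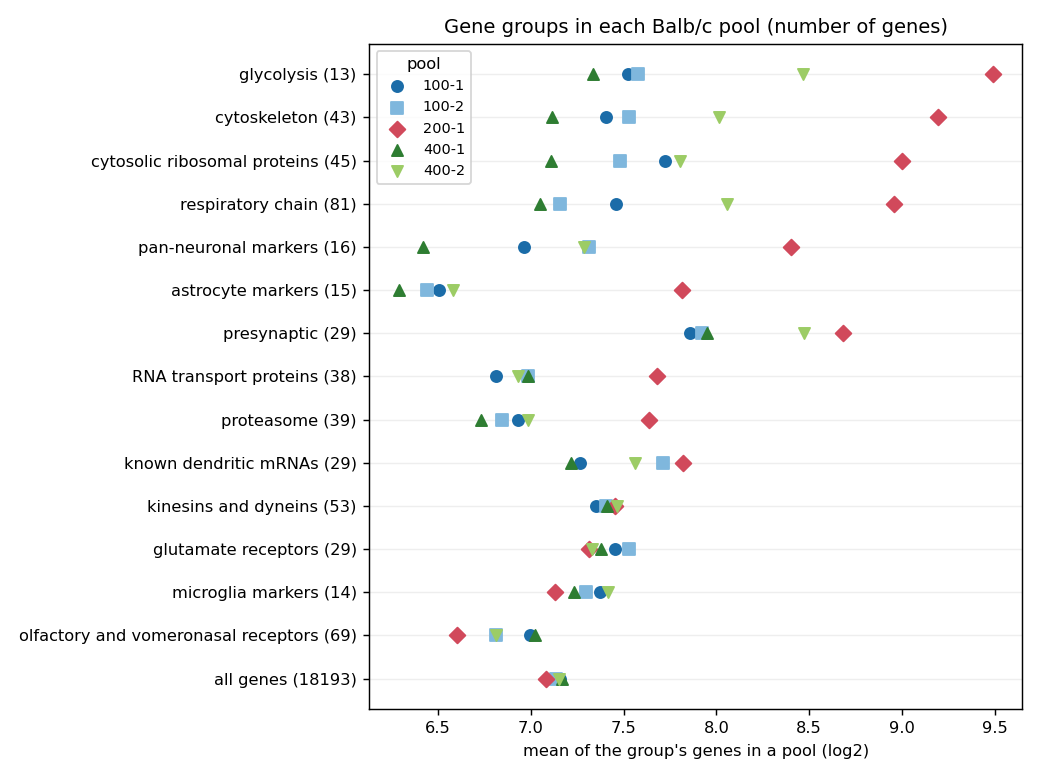
Mean of a group's genes (x axis, log2) in each of the 5 Balb/c pools, 1 symbol a pool, for 14 gene groups and for all genes, with the number of genes in brackets. Pool 200-1 stands to the right of the others in glycolysis (9.49), cytoskeleton (9.20), ribosomal proteins (9.00) and respiratory chain (8.96), while the 5 pools nearly coincide for kinesins and dyneins and for all genes.

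Pools of 400 were set beside pools of 100 to ask whether the number of dendrites went with the signal. With 2 pools against 2, an exact permutation test cannot give a two-sided p below 0.333. In limma, fitted to the 5 arrays with pool size as a factor, 0 of 18193 genes (0.0%) passed an adjusted p of 0.05, and 364 (2.0%) had an unadjusted p under 0.05. The fit had 2 residual degrees of freedom. Both pools of 400 lay above both pools of 100 in 2786 genes (15.3%) and below them in 2195 (12.1%). Pools that differ only by chance would be without overlap in a share of 0.333 of genes, counting both directions. The genes above and below made up a smaller share than this. The 2.0% with an unadjusted p under 0.05 also lay below the share of 0.05 that chance gives. These counts alone thus do not show that the signal went with pool size. The median difference over genes was 0.04. The 3′ minus 5′ signal of Gapdh did not overlap between the sizes either, at 1.48 and 1.89 in the pools of 100 and at 4.23 and 4.72 in the pools of 400. For Actb the sizes overlapped, at −0.69 and 2.0 in the pools of 100 and at −0.21 and 0.98 in the pools of 400. What the Gapdh signal stands for and the pool size cannot be told apart here.

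The 16 genes with the largest differences among those without overlap are given as values. Rap1gap, a GTPase-activating protein of Rap1, was at 8.28 and 7.93 in the pools of 100, at 9.50 in the pool of 200 and at 11.53 and 10.85 in the pools of 400, a difference of 3.09 ± 0.54 (SE). Ramp3, a partner of receptors for the calcitonin peptide family, was at 5.93 and 6.28, then at 12.33, and at 8.69 and 9.45 in the pools of 400. Its highest value was thus in the pool of 200. Slc22a19, an organic anion transporter, differed by 3.04 ± 1.53, which rested on 400-1 (11.52) since 400-2 was at 6.53 beside 6.28 in 100-2. Pramel29 differed by 2.95, which rested on a low 100-2 (5.83) where the other 4 pools lay from 10.20 to 11.10. The further genes higher in 400 were Tceanc, Tvp23b, 2700012I20Rik and C1qtnf9, with differences from 2.78 to 2.95. Each of these 4 also leaned on 1 pool. The difference fell to 1.17 for C1qtnf9 without 100-1, to 1.33 for 2700012I20Rik without 400-2, and to 1.82 for Tceanc and 1.80 for Tvp23b without 400-1.

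In the other direction, Sh3yl1, an SH3 domain protein that binds membranes, was at 11.26 and 10.57 in the pools of 100, 7.01 in the pool of 200 and 7.04 and 6.64 in the pools of 400, a difference of −4.08 ± 0.54 (SE). Hivep1, a zinc finger transcription factor, was at 8.72 and 10.65, then at 6.04, and at 6.24 and 5.11. Bbof1 was at 11.23 and 11.72, then at 5.85, and at 8.13 and 7.0. In these 3 genes the pool of 200 lay with the pools of 400. For Lgmn (−3.85), 4930550L24Rik (−3.64) and Junb (−3.56) the difference rested mainly on 100-1, at 11.45, 11.11 and 10.69 beside 4.50, 6.85 and 6.07 in 100-2. Armc5 and the vomeronasal receptor Vmn2r84 differed by −3.72 and −3.58, and for Armc5 this was −2.39 without 400-2.

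A fit over all 19 arrays, with a level for each strain and pool size, took the variance from 13 residual degrees of freedom, most of them of C57BL/6, and called 4 genes. Of these Rap1gap was higher in 400 (limma adjusted p = 0.0405), and Hivep1 (0.00715), Sh3yl1 (0.0353) and Ccl4, a chemokine (−2.53, 0.0405), were lower. Ccl4 was at 12.73 and 12.44 in the pools of 100, 9.62 in the pool of 200 and 10.56 and 9.55 in the pools of 400. The fit assumes that Balb/c pools vary like the C57BL/6 pools.

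The gene groups were counted in the same way, beside 15.3% of all genes with both pools of 400 above both of 100 and 12.1% below. In the presynaptic group it was 7 of 29 above (24.1%) and 0 below. In postsynaptic scaffolds it was 0 of 24 above and 6 below (25.0%), and in known dendritic mRNAs 5 of 29 above (17.2%) and 7 below (24.1%). The respiratory chain had 15 of 81 above (18.5%) and 5 below (6.17%) and cytosolic ribosomal proteins 3 of 45 above (6.67%) and 7 below (15.6%). Of these shares, those above in known dendritic mRNAs and the respiratory chain and that below in ribosomal proteins lay near the shares of all genes. The median difference of these groups lay between −0.18 and 0.26, where that of all genes was 0.04. Pools of 1 size differed by more than this in the respiratory chain, whose mean was 7.05 in 400-1 and 8.06 in 400-2. The presynaptic group did so too in its pools of 400, at 7.95 and 8.47, but not in those of 100, at 7.86 and 7.92.

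**Figure D5:**
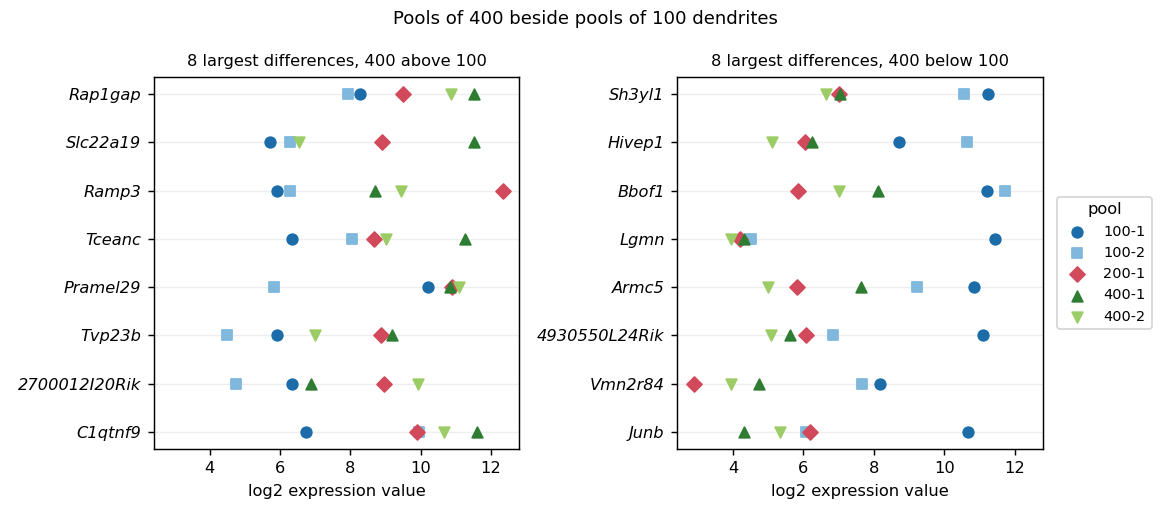
Log2 expression value (x axis) of the 8 genes with the largest difference in each direction among genes whose pools of 400 both lay above (left) or below (right) both pools of 100, with 1 symbol for each of the 5 Balb/c pools. Rap1gap, Sh3yl1, Hivep1 and Bbof1 separate the sizes, while Lgmn and Junb are high in pool 100-1 alone and Pramel29 is low in pool 100-2 alone.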

How the data were processed

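Pools of severed dendrites were profiled on an Affymetrix mouse genome array after several rounds of linear RNA amplification. The authors deposited log2 values per probe set. They summarised the probes of a set by their upper decile with RMA, for which the submitters' processing notes give version 2.0. That the scale is log2 follows from the range of the values, 2.19 to 15.99 in Balb/c. The methods also name median centring and range scaling, which the deposited values do not show. The sources used here give no genome build for the probes. From the 45101 probe sets, 64 controls, 932 with several symbols and 9160 without a symbol were left out. The other 34945 gave 18193 genes as medians. Symbols are those of the platform annotation, and 34741 probe sets (99.4%) matched RefSeq (assembly GRCm38.p6) by gene identifier. No filter was applied. The highest correlation between any 2 arrays was 0.945, so no 2 arrays were copies.

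Means and SDs were taken over the 5 Balb/c arrays (pandas 2.3.3, numpy 2.4.6, scipy 1.17.1). Pools of 400 and 100 were compared in R 4.3.3 with limma 3.58.1 (functions lmFit and eBayes) and Benjamini-Hochberg adjustment. Scripts were tested on simulated data. The genes named were the 20 of highest mean, the 20 of smallest SD within the top 5% by mean, the 20 of largest SD, the 8 of largest difference each way between pool sizes without overlap, the 2 highest and 2 most variable of each of 30 gene groups, and cell type and dendritic markers. Other genes named were chosen after their values were seen. The genes, groups and rules were chosen with earlier results of these data known. The alternatives were other scalings, the probe set of highest mean, a filter on dim genes, a replicate block, a fit over 19 arrays and leaving out each pool. For arrays, precision is limited by their number.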

Additional observations from a re-analysis of the deposited data

Results flagged for a closer look

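Of 178 values checked over the 5 pools (143 genes, 30 gene groups and 5 measures of an array), 24 had 1 pool far from the other 4, with a gap of over 0.71 of the whole range. Chance alone gives such a gap in about 1 in 20 sets of values, and 6.88% of all 18193 genes had one. The genes of large SD were chosen for their spread, so gaps among them are no separate evidence.

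In 10 genes the pool 100-1 was far above the others. These were 1700007E05Rik (10.71), Lgmn (11.45), Homez (10.83), Olfr976 (11.45), Ctla2b (11.10) and Cpn2 (11.96) of the 20 with the largest SD, then Ahrr (11.39), Card6 (11.38) and Nradd (11.87), found when 200-1 was left out, and the microglial Aif1 (5.98, others 5.05 to 5.31). Apart from Aif1 the other pools lay between 2.60 and 6.88. Smc1b was lowest in 100-1 (15.20, others 15.37 to 15.41). The cause was not tested.

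The pool 200-1 was far above the others in the astrocyte genes Fabp7 (10.73), Gja1 (9.45) and Clu (9.75), in the noncoding RNA Meg3 (11.94, others 7.50 to 8.27), and in the means of the astrocyte markers (7.82), RNA transport proteins (7.68), proteasome (7.63) and chaperones (7.29). It was far below them in Gdpd5 (13.31, others 13.78 to 13.95) and in the median gene (6.85, others 6.95 to 6.98). The number of distinct values was highest in this pool too (5458), and its part in these values was not tested.

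The pool 100-2 was far above the others in Bdnf (8.29, others 6.37 to 6.74) and far below them in Pramel29 (5.83, others 10.20 to 11.10) and Stambpl1 (9.46, others 9.73 to 9.83).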

How the results depend on the processing

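The comparison of pools of 400 and 100 called 0 genes under every alternative but the fit over all 19 arrays, which called 4. With the replicate numbers of the labels as a block the count was 0 (293 at an unadjusted p under 0.05). The numbers were not taken as a pairing, since replicate 1 of 100 and replicate 1 of 400 deviated from their size means with a correlation of −0.319 over genes. With the crossed pairing as a block, chosen after seeing the data, it was 0 as well (783 unadjusted). Leaving out any 1 pool gave 0 calls (234 to 1105 unadjusted). The difference in distance between strains kept its sign and did not pass under any setting run, with p from 0.121 to 0.929, and lay between 0.070 and 0.166 when a Balb/c pool was left out. With the probe set of highest mean, 456 genes lay in the top 5% of all pools, the median SD was 0.742, and the highest 20, the stable 20 and the 20 of largest SD kept 4, 1 and 3 genes. Among genes above the median gene the median SD was 0.704. Range scaling kept 12 of the stable 20. Leaving out each pool in turn gave 283 to 379 genes in the top 5% of all remaining pools and a median SD of 0.551 to 0.641, the lowest without 200-1. The highest 20 kept 19 to 20, the stable 20 kept 9 to 14 and the 20 of largest SD kept 8 to 17, each of the last 2 fewest without 200-1. The cause of these differences was not tested. The counts of gene groups in the top 5% without 200-1 were added after seeing the data, and that of the cytoskeleton fell from 8 to 3 of 43. At low signal the size of a difference can be bounded by background, which was not analysed here.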

Other observations

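Values are in the order 100-1, 100-2, 200-1, 400-1 and 400-2, on the log2 scale, and the genes stand as examples of groups not described above. Calmodulin signalling genes, which carry calcium signals in spines, had 6 of 17 members above the median gene in every pool, where all genes had 26.0%. Beside Nrgn, the calcineurin subunit Ppp3ca was at 9.54, 10.42, 10.01, 8.54 and 10.10. Pcp4, another calmodulin-binding protein, was at 6.51, 5.16, 9.94, 6.12 and 9.96 and so high in 200-1 and 400-2 alone. Of 16 GABA receptor subunits 2 lay above the median gene in every pool, and Gabrq was highest in 100-2 (7.45, 10.63, 7.71, 8.52 and 8.57). Neuropeptides and granins had 4 of 23 there. Gal, the galanin precursor, was at 9.36, 10.99, 7.63, 8.83 and 9.06 and lowest in 200-1, where Chgb was highest. Cartpt, which encodes the CART peptide, was high in 100-1 (11.04, 7.79, 6.77, 6.36 and 7.25), and Tac1, the substance P precursor, was steady at 8.79 ± 0.43 (SD, n = 5).

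Immediate early genes, which neuronal activity induces, had 7 of 25 above the median gene in every pool. Nr4a2 was at 9.30 ± 0.62 and Ier3 at 5.65, 6.24, 9.77, 5.11 and 9.22, with 200-1 and 400-2 high once more. Ion pumps and the vacuolar ATPase had 9 of 34, and Atp6ap2, a partner of the vacuolar pump, was at 9.73, 8.42, 13.75, 8.10 and 11.88. Nuclear RNAs had 6 of 14. Meg3, an imprinted noncoding RNA, was at 8.27, 7.72, 11.94, 7.50 and 8.10, far higher in 200-1 than elsewhere. Mitochondrial ribosomal proteins had 12 of 76, and the ubiquitin pathway had 20 of 83, with Usp39 at 10.01 ± 0.41. Among translation factors Eif6 was highest at 10.20 ± 0.41, and Eef1b2 was at 8.27, 6.17, 10.02, 6.61 and 9.46.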
